A study of Homo sapiens with 6 samples.

Results

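The integrated stress response genes described here are 34 named genes: ATF4, related transcription regulators, and genes known as targets of ATF4 in amino acid transport, serine and one-carbon metabolism, and feedback on the response. They are a list of symbols with no threshold on a measured value, drawn up with earlier results of these libraries known. All 34 were found among 63677 genes of the count table, and all 34 were among the 22331 genes that passed a filter on low counts and were tested.

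The data are poly(A) mRNA libraries of HEK293, a human line derived from embryonic kidney cells. Each group held 2 libraries. The cells had received siRNA against the circular RNA circRAB3IP (siRAB3IP), siRNA against the circular RNA circCAMSAP1 (siCAMSAP1), or a control siRNA named NTC, which the labels spell out as no template control. All cells were transfected with Lipofectamine RNAiMAX and were collected in TRIzol 48 hours later, so the lipid reagent and an siRNA were common to all 3 groups. No untransfected cells were among the libraries. A circular RNA joins the end of an exon back to an earlier one, and its level was not analysed here. Counts of the host genes RAB3IP and CAMSAP1 do not check such an siRNA, and the text gives the groups by the names in the authors' deposited tables.

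The labels contradict each other on which library belongs to which group, and every result below depends on that. Groups were read from the library identifiers. All 8 normalized columns of the deposited tables equalled a constant times 1 count column of the same group by identifier. The sample titles put 4 of the 6 libraries in another group, and in the genotype entries the names of both circular RNAs are swapped relative to the titles. Grouped by title, 0 of 34 genes and 0 of 22331 genes passed in any of the 3 comparisons by edgeR's quasi-likelihood test. At an unadjusted p under 0.05 that grouping gave 350, 441 and 471 genes, with 1, 0 and 0 of the 34, for siRAB3IP over control, siCAMSAP1 over control and siRAB3IP over siCAMSAP1. By title, control replicate 1 and siRAB3IP replicate 1 are control libraries. The titles name siCAMSAP1 replicate 1 and control replicate 2 as circRAB3IP, and siRAB3IP replicate 2 and siCAMSAP1 replicate 2 as circCAMSAP1. The values in each library stand beside most results in replicate order, so these can be read under either grouping.

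The libraries held 37379217 to 39637733 counted fragments. Levels are CPM, the counts scaled to a common TMM-adjusted library size, in replicate order. Levels of different genes are compared only as TPM, which also divides by exon length. A gene is called at an adjusted p under 0.05 in edgeR's quasi-likelihood test, adjusted over all genes tested by the Benjamini-Hochberg method, and ± after a log2 fold change is its standard error. The labels do not state that the 2 libraries of a group are from different cultures. The p-values set a group difference against the spread between libraries of a group, and that spread may be technical alone. VIM, which HEK293 cells express, stood at 174 to 330 CPM. PAX2 and NEFM, also listed as HEK293 markers, were near 0, at most 0.22 and 0.34 CPM, and NEFL was not analysed here. A set of 6 markers of blood cells and fibroblasts summed to 13.8 and 16.2 CPM in siRAB3IP cells, 16.7 and 19.0 CPM in siCAMSAP1 cells, and 17.1 and 19.4 CPM in control cells. PTPRC, CD3E, HBB and DCN were at or below 0.07 CPM in every library, and the rest came from COL1A1 and COL3A1. COL1A1 was lower in siRAB3IP cells than in control cells (log2 fold change -0.79 ± 0.14, adjusted p = 0.00404), and its part in the results below was not tested.

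The integrated stress response starts when a kinase (PERK, GCN2, PKR or HRI) phosphorylates the translation factor eIF2. General translation then slows, while the mRNA of ATF4 is translated better through its upstream reading frames. ATF4 is a basic leucine zipper factor that pairs with C/EBP proteins and activates genes for amino acid import, amino acid synthesis and tRNA charging. It also activates PPP1R15A (GADD34), which brings a phosphatase to eIF2 and ends the response. Much of the control of ATF4 acts on its translation, which mRNA counts do not measure.

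ATF4 binds a composite DNA word, in which a part that fits ATF factors stands beside a part that fits C/EBP factors. RefSeq promoter windows (GRCh38.p14, 250 bases before to 50 after a transcript's start) were matched for 28 of the 34 genes. Both strands were searched for TGATGCAA and for TGATGNAA, of which TGATGCAA is one form. TGATGCAA was in a window of 5 of the 28 genes (17.9%), against 1.08% of 27305 genes with a window. TGATGNAA was in 8 of the 28 (28.6%), against 4.46% of those genes. A match is a run of letters and not a shown binding site. The 8 matches are printed to show the word in its setting. Each is 5′ to 3′ on the gene's strand, with the word in capitals.
ASNS, chr7:97872458-97872487, minus strand: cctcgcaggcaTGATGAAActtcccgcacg
CEBPG, chr19:33374060-33374089, plus strand: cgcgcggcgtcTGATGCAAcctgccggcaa
CHAC1, chr15:40953251-40953280, plus strand, word on the other strand: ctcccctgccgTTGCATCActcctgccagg
JDP2, chr14:75427995-75428024, plus strand: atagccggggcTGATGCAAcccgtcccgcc
SLC1A4, chr2:64989381-64989410, plus strand, word on the other strand: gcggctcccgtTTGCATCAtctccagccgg
SLC1A5, chr19:46784893-46784922, minus strand: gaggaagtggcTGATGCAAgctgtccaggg
SLC3A2, chr11:62881725-62881748, plus strand, word on the other strand: tgcaggactccTTACATCAgctcc
SLC7A1, chr13:29595663-29595692, minus strand: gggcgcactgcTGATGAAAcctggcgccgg

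Among these genes, 6 of 8 were called higher in siRAB3IP cells than in control cells, namely ASNS, CHAC1, SLC1A4, SLC1A5, SLC3A2 and SLC7A1. CEBPG and JDP2 carry the word and were not called. Of the 20 genes whose windows lacked both words, 7 were called higher in the same comparison, and of the 6 genes with no window, 1 was. Of all genes tested, 6.39% were called higher. Whether the word has a part in these calls was not tested.

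Against control cells, siRAB3IP cells had more mRNA of amino acid transporters, of PPP1R15A, CHAC1 and STC2, and of a few enzymes of amino acid metabolism, while the mRNA of ATF4 itself did not pass the test. Of the 34 genes, 14 were called higher and 1 lower, and 19 were not called. Over all genes tested, 6.39% were called higher and 5.24% lower. The median log2 fold change was 0.20 over the 34 genes and -0.01 over all genes tested. Well-measured genes are called more often: among the 30 of these genes that averaged 5 CPM or more, 12 were called higher, against 9.83% of all genes at that level. These are averages over a culture, so more RNA in each cell and more cells with a high level cannot be told apart.

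**Figure D1:**
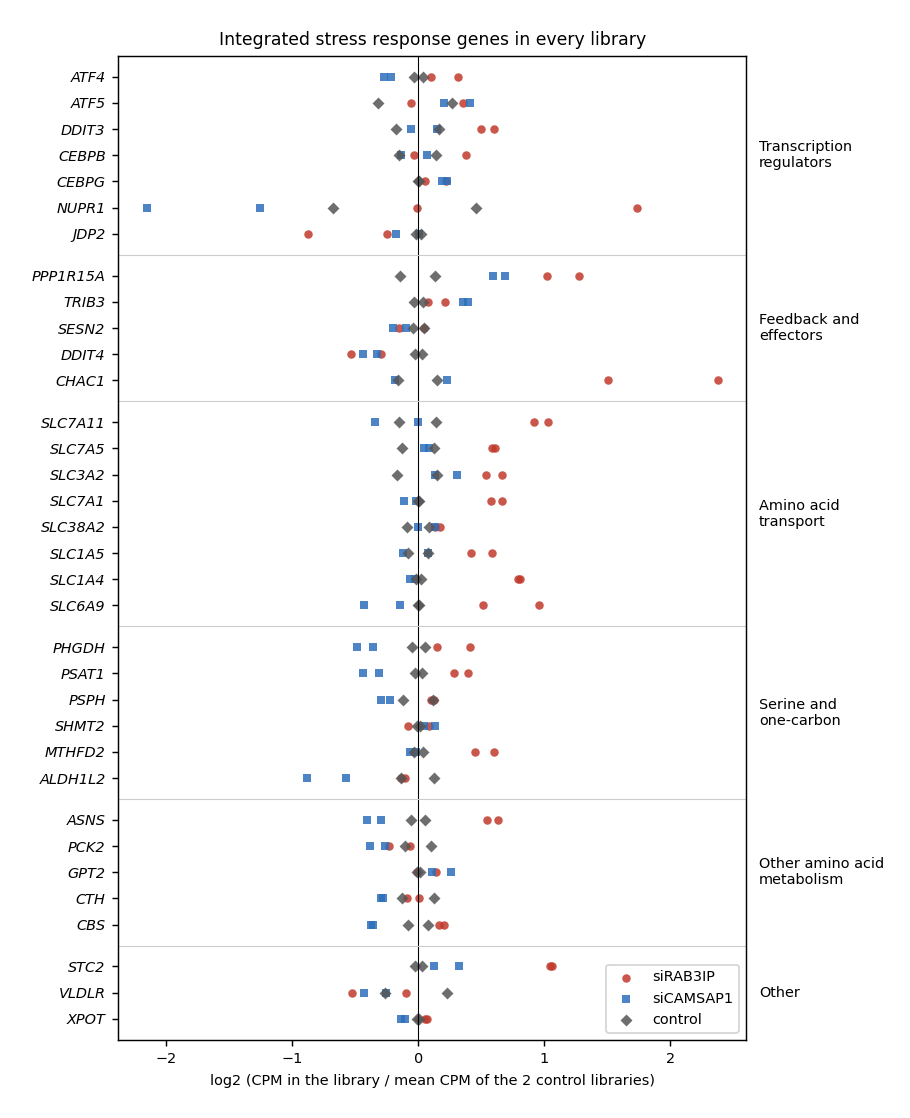
Each point is 1 library, plotted as the log2 ratio of its CPM to the mean of the 2 control libraries; siRAB3IP points are red circles, siCAMSAP1 points blue squares and control points grey diamonds. Both siRAB3IP libraries lie above both control libraries for all 8 transporters (25.9% of all genes tested), while the siCAMSAP1 libraries lie below the control libraries for 4 of the 6 serine and one-carbon genes (20.9% of all genes tested).

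The transporters rose together: 7 of 8 were called higher in siRAB3IP cells than in control cells, against 6.39% of all genes tested. Their median log2 fold change was 0.61. Both siRAB3IP libraries were above both control libraries for all 8, and for 25.9% of all genes tested. SLC7A11, the cystine importer of system xc- (chr4:139085251-139163503, hg19), had 49.3 and 45.7 CPM in siRAB3IP cells, 19.1 and 24.1 CPM in siCAMSAP1 cells, and 21.7 and 26.7 CPM in control cells. The siRAB3IP libraries stood apart from the other 4, among which the groups overlapped. Its log2 fold change over control was 0.97 ± 0.12 (edgeR, adjusted p = 0.000552).

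SLC3A2 is the heavy chain (CD98hc, 4F2hc) that carries SLC7A11 and SLC7A5 to the cell surface. It had 334 and 306 CPM in siRAB3IP cells, 261 and 231 CPM in siCAMSAP1 cells, and 234 and 188 CPM in control cells. The siRAB3IP libraries were the highest, and the other groups overlapped. The log2 fold change of siRAB3IP over control was 0.60 ± 0.11 (edgeR, adjusted p = 0.00377). SLC7A5 (LAT1), the light chain that imports leucine and other large neutral amino acids, had 192 and 189 CPM in siRAB3IP cells, 133 and 130.2 CPM in siCAMSAP1 cells, and 137 and 115 CPM in control cells. Its log2 fold change over control matched that of its partner to 2 decimals, at 0.60 ± 0.09 (edgeR, adjusted p = 0.00136).

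The alanine, serine and cysteine carrier SLC1A4 (ASCT1) had 53.1 and 52.6 CPM in siRAB3IP cells, 29.7 and 28.9 CPM in siCAMSAP1 cells, and 29.99 and 30.7 CPM in control cells. Replicates differed little beside the gap to siRAB3IP, and the log2 fold change over control was 0.80 ± 0.08 (edgeR, adjusted p = 0.000151). Its relative SLC1A5 (ASCT2), the main glutamine carrier of many dividing cells, had 408 and 364 CPM in siRAB3IP cells, 286 and 249.5 CPM in siCAMSAP1 cells, and 287 and 257 CPM in control cells. The log2 fold change over control was 0.50 ± 0.10 (edgeR, adjusted p = 0.00534), and the call was lost without siRAB3IP replicate 1 (adjusted p = 0.0611).

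SLC7A1 (CAT1), the carrier of arginine and lysine, had 124 and 117 CPM in siRAB3IP cells, 77.3 and 72.2 CPM in siCAMSAP1 cells, and 78.5 and 77.8 CPM in control cells. It was higher over control by 0.62 ± 0.08 on the log2 scale (edgeR, adjusted p = 0.000531). The glycine carrier SLC6A9 (GlyT1) was scarce, at 3.91 and 5.33 CPM in siRAB3IP cells, 2.47 and 2.03 CPM in siCAMSAP1 cells, and 2.76 and 2.73 CPM in control cells. It was called at a log2 fold change of 0.75 ± 0.20 (edgeR, adjusted p = 0.0329), and lost the call without siRAB3IP replicate 2 (adjusted p = 0.259), control replicate 1 (0.0897) or control replicate 2 (0.113). SLC38A2 (SNAT2), a neutral amino acid carrier known to be raised by amino acid shortage, was the exception. It had 379 and 370.1 CPM in siRAB3IP cells, 336 and 369 CPM in siCAMSAP1 cells, and 317 and 357 CPM in control cells, and its log2 fold change over control of 0.15 ± 0.09 did not pass (edgeR, adjusted p = 0.298).

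**Figure D2:**
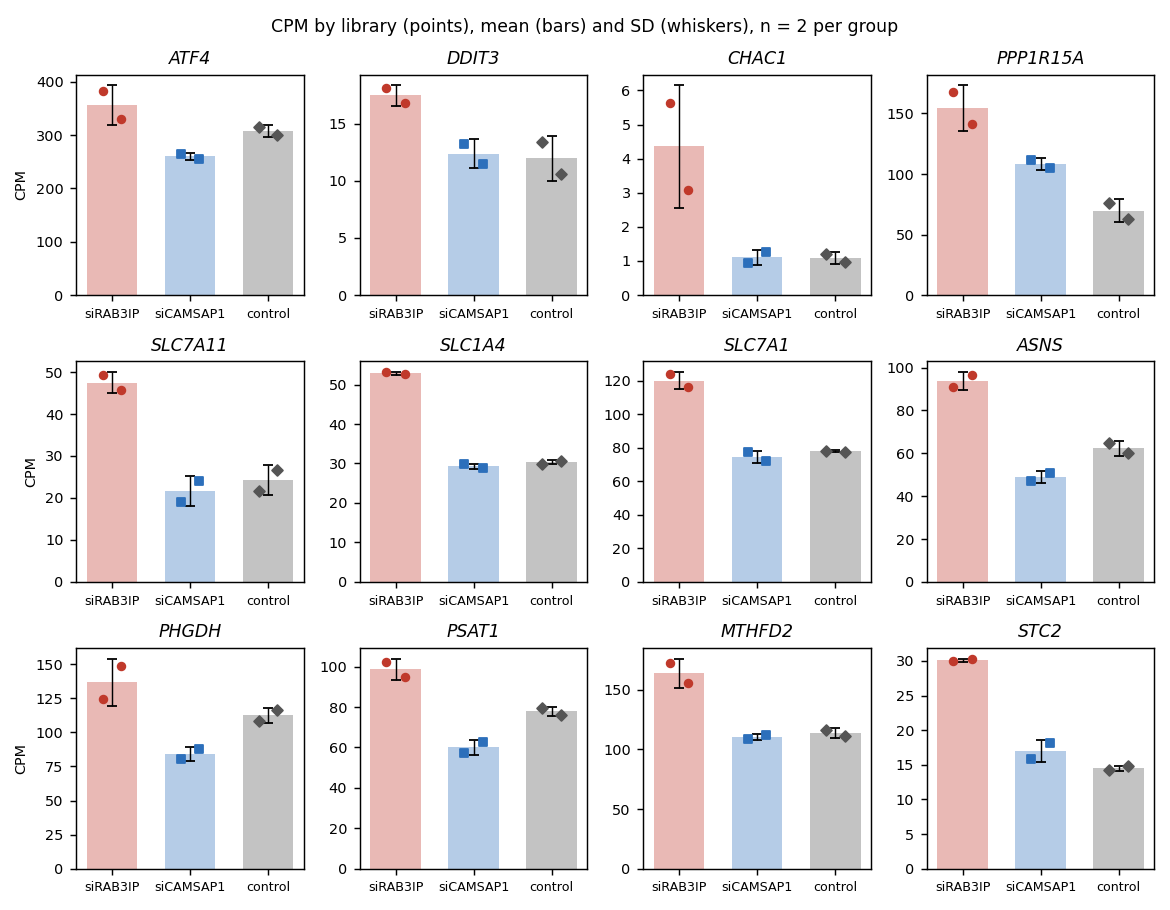
CPM of 12 genes in each library (points), with the group mean (bars, from 0) and SD (whiskers, n = 2), for siRAB3IP, siCAMSAP1 and control from left to right. The 12 genes were picked from the 20 called higher in siRAB3IP over siCAMSAP1, so they do not stand for all 34. Both siRAB3IP libraries are the highest for each. Of all genes tested, 25.9% have both above both control libraries and 25.8% above both siCAMSAP1 libraries. ATF4, SLC1A4, SLC7A1, ASNS, PHGDH and PSAT1 are lower in both siCAMSAP1 libraries than in both control libraries (20.9% of all genes tested), and PPP1R15A and STC2 are higher there.

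Among the 5 feedback and effector genes, PPP1R15A and CHAC1 rose and DDIT4 fell in siRAB3IP cells. PPP1R15A (chr19:49375649-49379314, hg19), the regulatory subunit that directs a phosphatase to eIF2, had 168 and 141 CPM in siRAB3IP cells, 112 and 105 CPM in siCAMSAP1 cells, and 76.4 and 62.8 CPM in control cells. The 3 groups did not overlap. Its log2 fold changes over control were 1.15 ± 0.11 in siRAB3IP cells (edgeR, adjusted p = 0.000102) and 0.64 ± 0.11 in siCAMSAP1 cells (edgeR, adjusted p = 0.0168). The siCAMSAP1 call was lost without siCAMSAP1 replicate 1 (adjusted p = 0.0689) or control replicate 2 (adjusted p = 0.0920).

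CHAC1 encodes an enzyme that degrades glutathione. It had 5.63 and 3.09 CPM in siRAB3IP cells, 0.954 and 1.27 CPM in siCAMSAP1 cells, and 1.20 and 0.968 CPM in control cells. Of the 34 genes it had the largest log2 fold change over control in siRAB3IP cells, 2.01 ± 0.30 (edgeR, adjusted p = 0.00139), at a low level and with the siRAB3IP libraries well apart from each other.

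DDIT4 (REDD1), an inhibitor of mTORC1 signalling, had 12.5 and 14.8 CPM in siRAB3IP cells, 14.5 and 13.4 CPM in siCAMSAP1 cells, and 17.8 and 18.6 CPM in control cells. Both knockdowns were below both control libraries. The siRAB3IP difference passed at -0.41 ± 0.12 (edgeR, adjusted p = 0.0381) and lost the call without any one of its 4 libraries (adjusted p from 0.0507 to 0.263), and the siCAMSAP1 difference of -0.38 ± 0.12 did not pass (edgeR, adjusted p = 0.180). TRIB3, a pseudokinase that binds ATF4 and DDIT3 and restrains them, had 21.9 and 19.9 CPM in siRAB3IP cells, 24.1 and 24.8 CPM in siCAMSAP1 cells, and 18.4 and 19.3 CPM in control cells. SESN2, a leucine sensor upstream of mTORC1, had 44.9 and 39.1 CPM in siRAB3IP cells, 40.5 and 37.8 CPM in siCAMSAP1 cells, and 44.8 and 42.1 CPM in control cells. Neither was called in any of the comparisons.

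Of the 7 regulators, DDIT3 alone was called over control. DDIT3 (CHOP), a C/EBP family factor linked to prolonged stress, had 18.1 and 16.9 CPM in siRAB3IP cells, 13.3 and 11.5 CPM in siCAMSAP1 cells, and 13.4 and 10.6 CPM in control cells. The siRAB3IP libraries were highest, with a log2 fold change over control of 0.55 ± 0.13 (edgeR, adjusted p = 0.0193). The call was lost without siRAB3IP replicate 1 (adjusted p = 0.115), siRAB3IP replicate 2 (0.0603) or control replicate 2 (0.150). The reads of DDIT3 are uncertain, since 30.1% of its exon length lies opposite exons of MARS1 and the counting had no strand setting. MARS1 had 40243 counts over the 6 libraries against 3223 for DDIT3.

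ATF4 (chr22:39915700-39918691, hg19) had 383 and 329 CPM in siRAB3IP cells, 265 and 255 CPM in siCAMSAP1 cells, and 316 and 300.3 CPM in control cells. The groups did not overlap, with siRAB3IP highest and siCAMSAP1 lowest. The log2 fold changes over control were 0.21 ± 0.09 in siRAB3IP cells (edgeR, adjusted p = 0.148) and -0.24 ± 0.09 in siCAMSAP1 cells (edgeR, adjusted p = 0.264), and neither passed. With the replicate number as a block, which no label ties to a culture or day, both passed (edgeR, adjusted p = 0.0106 and 0.0115). ATF4 had the highest level per length of the 34 genes in every group, at 194 ± 16.4 TPM in siRAB3IP cells, 147 ± 1.17 TPM in siCAMSAP1 cells and 185 ± 6.95 TPM in control cells (SD, n = 2 each).

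The other regulators were not called over control in either knockdown. NUPR1, a small stress-induced chromatin protein, varied between replicates, at 2.17 and 7.27 CPM in siRAB3IP cells, 0.490 and 0.914 CPM in siCAMSAP1 cells, and 1.36 and 3.0 CPM in control cells. ATF5, an ATF4 relative also under translational control, had 16.8 and 12.6 CPM in siRAB3IP cells, 17.5 and 15.2 CPM in siCAMSAP1 cells, and 15.8 and 10.5 CPM in control cells, with all groups overlapping. Its reads are uncertain, as 21.2% of its exon length lies opposite exons of NUP62, a gene with 33033 counts against 3411 for ATF5. CEBPG, a partner of ATF4 in DNA binding, had 67.7 and 60.6 CPM in siRAB3IP cells, 66.6 and 68.3 CPM in siCAMSAP1 cells, and 58.6 and 58.1 CPM in control cells. CEBPB, another C/EBP partner, ranged from 10.3 to 14.9 CPM over the 6 libraries with all groups overlapping. JDP2, a repressor of the AP-1 family, had 2.80 and 4.34 CPM in siRAB3IP cells, 4.56 and 5.18 CPM in siCAMSAP1 cells, and 5.08 and 5.23 CPM in control cells. Its log2 fold change of -0.53 ± 0.20 in siRAB3IP cells was the lowest of the 34 in that comparison and did not pass (edgeR, adjusted p = 0.112).

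Of the 6 serine and one-carbon genes, 2 were called higher over control in siRAB3IP cells, against 6.39% of all genes tested. A log2 fold change above 0 was seen in 5 of the 6, and in 10812 of all 22331 genes tested. These 5 include SHMT2 at 0.004 ± 0.08 and PSPH at 0.11 ± 0.10. MTHFD2, the mitochondrial folate dehydrogenase of dividing cells, had 172 and 155 CPM in siRAB3IP cells, 109 and 112 CPM in siCAMSAP1 cells, and 117 and 111 CPM in control cells. It was higher in siRAB3IP cells by 0.53 ± 0.08 on the log2 scale (edgeR, adjusted p = 0.00166). Of its exon length, 27.2% lies opposite exons of SLC4A5, a gene with 203 counts over the 6 libraries against 29900 for MTHFD2. PSAT1, the transaminase of the second step of serine synthesis, had 102 and 94.8 CPM in siRAB3IP cells, 57.3 and 62.7 CPM in siCAMSAP1 cells, and 79.5 and 76.2 CPM in control cells. Its log2 fold change of siRAB3IP over control was 0.34 ± 0.08 (edgeR, adjusted p = 0.0195), and the call was lost without siRAB3IP replicate 1 (adjusted p = 0.156), siRAB3IP replicate 2 (0.0555) or control replicate 2 (0.0937).

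PHGDH, the first enzyme of serine synthesis, had 125 and 149 CPM in siRAB3IP cells, 80.2 and 87.7 CPM in siCAMSAP1 cells, and 109 and 116 CPM in control cells. Its order was that of ATF4, with no overlap of groups, and neither difference from control passed: 0.28 ± 0.10 in siRAB3IP cells (edgeR, adjusted p = 0.0761) and -0.42 ± 0.10 in siCAMSAP1 cells (edgeR, adjusted p = 0.0642). Both differences passed with DESeq2, with no filter on low counts, and with the replicate number as a block. PSPH, the phosphatase of the last step, had 32.9 and 32.4 CPM in siRAB3IP cells, 24.6 and 25.9 CPM in siCAMSAP1 cells, and 32.7 and 27.7 CPM in control cells. ALDH1L2, a mitochondrial enzyme that oxidizes formyl-folate, had 14.2 and 13.9 CPM in siRAB3IP cells, 8.27 and 10.3 CPM in siCAMSAP1 cells, and 13.9 and 16.7 CPM in control cells. The siCAMSAP1 libraries were the lowest. SHMT2, the mitochondrial enzyme that splits serine into glycine and a folate-bound carbon, ranged from 167 to 194 CPM over the 6 libraries and was called in no comparison.

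Of the 5 other genes of amino acid metabolism, ASNS was called higher over control in siRAB3IP cells. ASNS (asparagine synthetase, chr7:97481430-97501854, hg19) had 90.9 and 96.8 CPM in siRAB3IP cells, 47.1 and 50.9 CPM in siCAMSAP1 cells, and 64.8 and 60.0 CPM in control cells. The 3 groups were apart from each other, and the log2 fold change of siRAB3IP over control was 0.59 ± 0.08 (edgeR, adjusted p = 0.00103). CBS, which makes cystathionine from homocysteine and serine, had 53.9 and 55.4 CPM in siRAB3IP cells, 37.2 and 37.6 CPM in siCAMSAP1 cells, and 45.5 and 50.8 CPM in control cells. Its log2 fold change of siRAB3IP over control, 0.18 ± 0.08, did not pass (edgeR, adjusted p = 0.193).

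CTH, the next enzyme of that pathway, had 9.71 and 9.05 CPM in siRAB3IP cells, 7.86 and 7.92 CPM in siCAMSAP1 cells, and 8.80 and 10.5 CPM in control cells. PCK2, a mitochondrial kinase that makes phosphoenolpyruvate, had 13.3 and 11.9 CPM in siRAB3IP cells, 10.7 and 11.6 CPM in siCAMSAP1 cells, and 12.9 and 14.98 CPM in control cells. GPT2, the mitochondrial alanine transaminase, had 29.5 and 26.5 CPM in siRAB3IP cells, 28.7 and 31.95 CPM in siCAMSAP1 cells, and 27.0 and 26.5 CPM in control cells. None of these 3 was called in any of the comparisons.

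STC2, a secreted glycoprotein (chr5:172741716-172756506, hg19), had 29.9 and 30.2 CPM in siRAB3IP cells, 15.9 and 18.1 CPM in siCAMSAP1 cells, and 14.3 and 14.8 CPM in control cells. Its siRAB3IP libraries differed little from each other, and the log2 fold change over control was 1.05 ± 0.10 (edgeR, adjusted p = 0.000117). VLDLR, a lipoprotein receptor, had 13.4 and 18.03 CPM in siRAB3IP cells, 14.3 and 16.1 CPM in siCAMSAP1 cells, and 16.1 and 22.5 CPM in control cells. XPOT, the exporter of tRNA from the nucleus, had 316 and 312 CPM in siRAB3IP cells, 273 and 280.4 CPM in siCAMSAP1 cells, and 299.6 and 303 CPM in control cells. VLDLR and XPOT were called in no comparison.

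**Figure D3:**
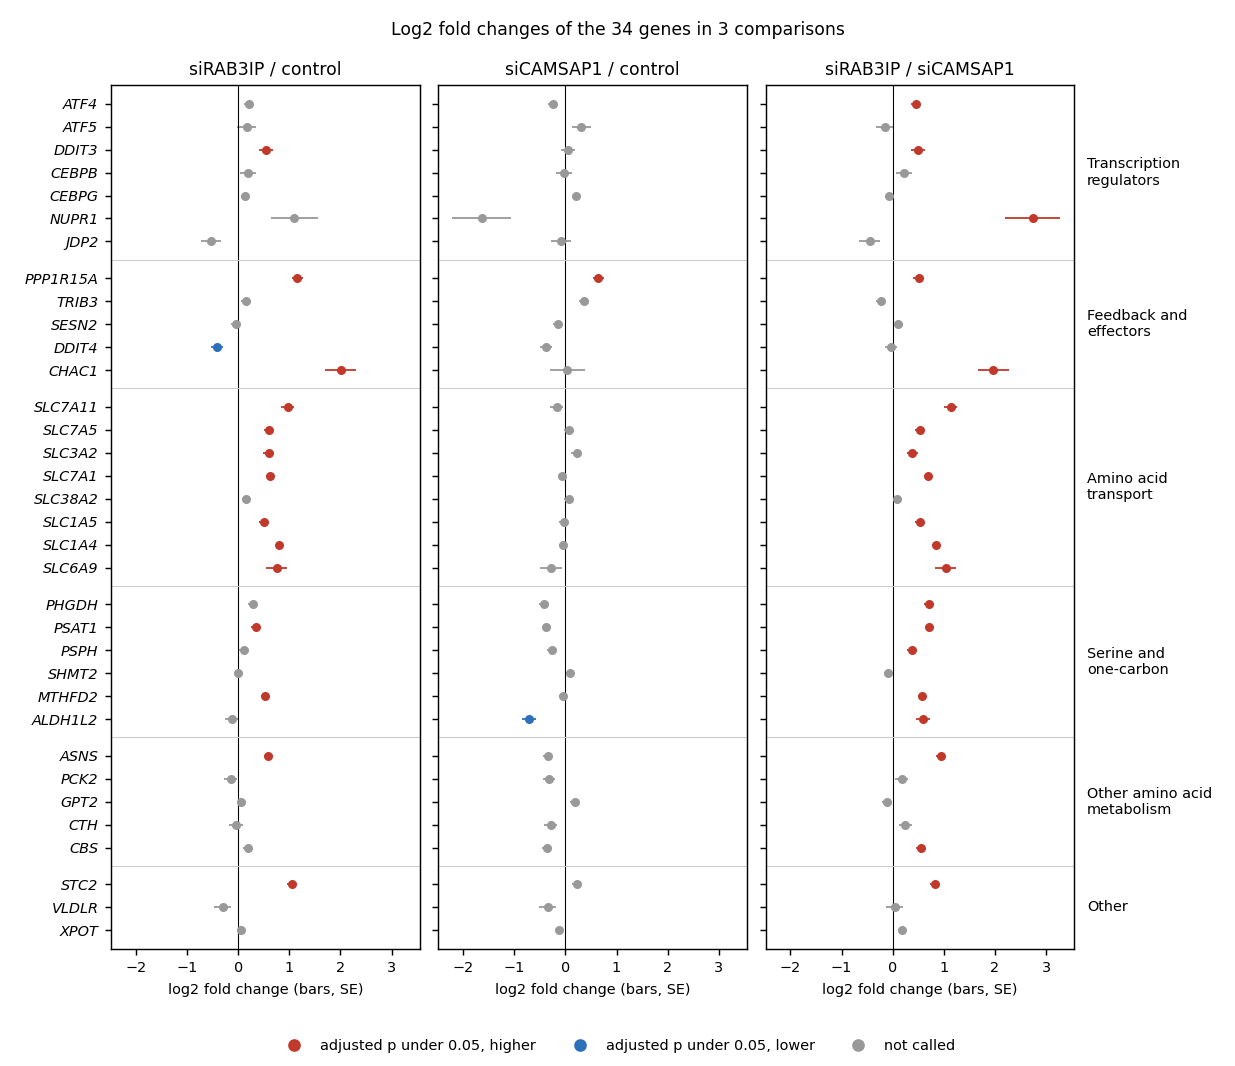
Log2 fold change (points) with its standard error (bars) for the 34 genes in siRAB3IP over control, siCAMSAP1 over control and siRAB3IP over siCAMSAP1; colour marks genes called at an adjusted p under 0.05. The calls number 14 higher and 1 lower, 1 higher and 1 lower, and 20 higher and 0 lower.

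Against control cells, siCAMSAP1 cells showed 1 call in each direction among the 34 genes: PPP1R15A was higher and ALDH1L2 lower, with 32 not called. The count lower was 5 with DESeq2 and 6 with no filter on low counts, both including PHGDH, PSAT1, ASNS and CBS. Over all genes tested, 0.448% were called higher and 0.493% lower. ALDH1L2 had a log2 fold change of -0.72 ± 0.14 (edgeR, adjusted p = 0.0281), which did not pass without siCAMSAP1 replicate 1 (adjusted p = 0.189) or control replicate 2 (adjusted p = 0.184). The median over the 34 genes was -0.07, and 0.00 over all genes tested. Both siCAMSAP1 libraries were below both control libraries for 16 of the 34 genes, while 20.9% of all genes tested were arranged so. These 16 included 4 of 6 serine and one-carbon genes and 4 of 5 other genes of amino acid metabolism, but 3 of 8 transporters. Several lay near the threshold: PSAT1 at -0.38 ± 0.08 (edgeR, adjusted p = 0.0567), CBS at -0.37 ± 0.08 (0.0690) and ASNS at -0.35 ± 0.08 (0.0823).

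Both knockdown groups were set against the same 2 control libraries, so their fold changes over control are not independent of each other. For 9 of the 34 genes, both siRAB3IP libraries lay above and both siCAMSAP1 libraries below the control libraries. These were ATF4, SLC7A1, SLC1A4, SLC6A9, PHGDH, PSAT1, ASNS, CBS and XPOT. Over all genes tested, 3.1% were arranged so. Of the 3 transporters among them, the log2 fold changes of siCAMSAP1 over control were -0.06 ± 0.08 for SLC7A1, -0.05 ± 0.08 for SLC1A4 and -0.28 ± 0.22 for SLC6A9. None of the 9 genes was called in siCAMSAP1 over control, and XPOT was called in no comparison.

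Set directly against siCAMSAP1 cells, a comparison that uses no control library for the difference, siRAB3IP cells had 20 of the 34 genes called higher and 0 lower. Over all genes tested, 4.89% were called higher and 3.96% lower in this comparison. At an unadjusted p under 0.05 (edgeR), 21 of the 34 genes were higher and 2, JDP2 and TRIB3, were lower. Of all 22331 genes tested, 5182 passed that limit in either direction. The count of the 34 called lower was also 0 with DESeq2 and with limma-voom. The count called higher was 13 without siRAB3IP replicate 1. Among the 30 genes that averaged 5 CPM or more, 17 were called higher, against 7.19% of all genes at that level. The median log2 fold change was 0.48 over the 34 genes and -0.01 over all genes tested. Both siRAB3IP libraries were above both siCAMSAP1 libraries for 24 of the 34, an arrangement seen in 25.8% of all genes tested. All 14 genes called higher over control were also called here, and 6 more were called here without a call over control: ATF4, NUPR1, PHGDH, PSPH, ALDH1L2 and CBS. Both comparisons share the 2 siRAB3IP libraries, so their calls are not independent of each other. In the same comparison the marker genes VIM (0.56 ± 0.14) and COL1A1 (-1.03 ± 0.14) were also called, and their part in these results was not tested.

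The largest differences between the knockdowns were those of NUPR1, at 2.74 ± 0.54 (edgeR, adjusted p = 0.00804), and CHAC1, at 1.97 ± 0.30 (edgeR, adjusted p = 0.00199). The NUPR1 call was lost without siRAB3IP replicate 2, which held its highest level (log2 fold change 1.62, adjusted p = 0.0907). ATF4 was higher in siRAB3IP than in siCAMSAP1 cells by 0.45 ± 0.09 (edgeR, adjusted p = 0.00713), and this call was lost without siRAB3IP replicate 1 (0.34, adjusted p = 0.0833). DDIT3 differed by 0.50 ± 0.13 (edgeR, adjusted p = 0.0337), and lost the call without any one of the 4 libraries compared (adjusted p from 0.0548 to 0.191).

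In serine and one-carbon metabolism, 5 of 6 genes were called higher in siRAB3IP than in siCAMSAP1 cells, where 2 were called over control. Of all genes tested, 4.89% were called higher over siCAMSAP1 cells, and 7.19% of those at 5 CPM or more. Over control, the median log2 fold change of the 6 was 0.20 in siRAB3IP cells and -0.32 in siCAMSAP1 cells. Between the knockdowns, the log2 fold changes were 0.70 ± 0.10 for PHGDH (edgeR, adjusted p = 0.000973), 0.72 ± 0.08 for PSAT1 (0.000415) and 0.37 ± 0.10 for PSPH (0.0353), the 3 enzymes of serine synthesis. MTHFD2 differed by 0.57 ± 0.08 (edgeR, adjusted p = 0.00125) and ALDH1L2 by 0.60 ± 0.14 (0.0175), whereas SHMT2 stood at -0.08 ± 0.08 (0.601). The PSPH call was lost without any one of the 4 libraries (adjusted p from 0.0888 to 0.182). The ALDH1L2 call was lost without siRAB3IP replicate 1, siRAB3IP replicate 2 or siCAMSAP1 replicate 1 (adjusted p from 0.0780 to 0.146).

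The same 7 transporters were called higher in both comparisons of siRAB3IP cells, against 6.39% of all genes over control and 4.89% over siCAMSAP1 cells. Over siCAMSAP1 cells, SLC7A11 differed by 1.14 ± 0.12 (edgeR, adjusted p = 0.000322), SLC1A4 by 0.85 ± 0.08 (0.000129) and SLC7A1 by 0.69 ± 0.08 (0.000410). SLC7A5 and SLC3A2 differed by 0.53 ± 0.09 (edgeR, adjusted p = 0.00331) and 0.38 ± 0.11 (0.0431). The SLC3A2 call was lost without any one of the 4 libraries (adjusted p from 0.0553 to 0.235). SLC1A5 differed by 0.53 ± 0.10 (edgeR, adjusted p = 0.00525), and its adjusted p was 0.0546 without siRAB3IP replicate 1. SLC6A9 differed by 1.03 ± 0.21 (edgeR, adjusted p = 0.00898), and its adjusted p was 0.104 without siRAB3IP replicate 2 and 0.0595 without siCAMSAP1 replicate 2. SLC38A2 was not called here either, at 0.09 ± 0.09 (edgeR, adjusted p = 0.598).

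Among the remaining genes, ASNS was higher in siRAB3IP than in siCAMSAP1 cells by 0.94 ± 0.08 (edgeR, adjusted p = 0.000101), CBS by 0.55 ± 0.09 (0.00217) and STC2 by 0.82 ± 0.10 (0.000532). PPP1R15A, higher than control in both knockdowns, was higher again in siRAB3IP than in siCAMSAP1 cells, by 0.51 ± 0.11 (edgeR, adjusted p = 0.0108). This call was lost without siRAB3IP replicate 1 (adjusted p = 0.109) or siCAMSAP1 replicate 2 (0.0586). In all, 13 of the 34 genes were called in none of the 3 comparisons: ATF5, CEBPB, CEBPG, JDP2, TRIB3, SESN2, SLC38A2, SHMT2, PCK2, GPT2, CTH, VLDLR and XPOT.

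Per length, the 34 genes spanned a wide range in control cells, from 185 ± 6.95 TPM for ATF4 to 0.797 ± 0.0650 TPM for CHAC1 (SD, n = 2). The order at the top was ATF4, SLC1A5 (123 ± 0.406 TPM), SLC38A2 (77.6 ± 12.1 TPM), XPOT (62.0 ± 4.99 TPM) and SLC3A2 (60.6 ± 4.99 TPM). XPOT and SLC3A2 did not differ beyond their spread in control cells. In siRAB3IP cells, SLC3A2 reached 83.9 ± 3.46 TPM and PPP1R15A 68.6 ± 6.90 TPM, the third and the fifth place, against 60.6 ± 4.99 and 33.9 ± 2.22 TPM in control cells, the fifth and the tenth place.

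The rest of the pathway was read from lists of genes outside the 34. Of 19 genes for the eIF2 kinases and their regulators, eIF2, eIF2B and the eIF2 phosphatases, 6 were called higher and 1 lower in siRAB3IP cells against control cells. The shares of all genes tested were 6.39% higher and 5.24% lower. EIF2AK3, the kinase PERK of the endoplasmic reticulum, had 36.5 and 34.7 CPM in siRAB3IP cells, 28.6 and 30.6 CPM in siCAMSAP1 cells, and 24.0 and 22.3 CPM in control cells. Its log2 fold change of siRAB3IP over control was 0.62 ± 0.09 (edgeR, adjusted p = 0.00123). Smaller differences were called for DNAJC3, an inhibitor of these kinases (0.40 ± 0.09), EIF2B2, a subunit of the eIF2 exchange factor (0.40 ± 0.10), and PPP1R15B, the constitutive phosphatase subunit (0.34 ± 0.08). EIF2AK4 (GCN2), the kinase that senses uncharged tRNA, was lower in siRAB3IP than in control cells, at -0.31 ± 0.08 (edgeR, adjusted p = 0.0191). It was also lower than in siCAMSAP1 cells, at -0.37 ± 0.08 (edgeR, adjusted p = 0.00978). EIF2AK2 (PKR) was higher in both comparisons, at 0.25 ± 0.08 over control (edgeR, adjusted p = 0.0498) and 0.27 ± 0.08 over siCAMSAP1 cells (0.0412). Set directly against siCAMSAP1 cells, 2 of the 19 were called higher and 1 lower. These shares are near those of all genes (4.89% and 3.96%, or 7.19% higher among genes at 5 CPM or more).

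Of 15 further genes known as ATF4 targets, 13 were tested, of which 8 were called higher and 1 lower in siRAB3IP cells against control cells. Among all genes tested, 6.39% were called higher and 5.24% lower. ATF3, a stress-induced factor of the same family, had 86.9 and 68.5 CPM in siRAB3IP cells, 53.8 and 55.1 CPM in siCAMSAP1 cells, and 44.3 and 38.2 CPM in control cells, a log2 fold change over control of 0.91 ± 0.11 (edgeR, adjusted p = 0.000448). The autophagy receptor SQSTM1 was higher by 0.66 ± 0.12 and the proline synthesis enzyme PYCR1 by 0.56 ± 0.09. Of the exon length of SQSTM1, 20.6% lies opposite exons of MRNIP, a gene with 4082 counts against 50127 for SQSTM1. The leucine carrier SLC43A1 was lower, at 8.49 and 11.3 CPM in siRAB3IP cells, 15 and 17.9 CPM in siCAMSAP1 cells, and 14.9 and 17.9 CPM in control cells (siRAB3IP over control, -0.73 ± 0.15, edgeR, adjusted p = 0.00964).

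Of 18 other amino acid transporters, 16 were tested. At an unadjusted p under 0.05 (edgeR), 9 were higher and 3 lower in siRAB3IP cells against control cells. Of all 22331 genes tested, 5765 passed that limit in either direction. After adjustment 4 of the 16 transporters were called higher and 0 lower, against 6.39% and 5.24% of all genes tested. The 4 were SLC7A6 (0.64 ± 0.09), SLC38A1 (0.54 ± 0.08), SLC1A1 (0.43 ± 0.12) and SLC36A4 (0.30 ± 0.08). The reads of SLC7A6 are uncertain, since 44.5% of its exon length lies opposite exons of SLC7A6OS. That gene had 2199 counts over the 6 libraries against 9684 for SLC7A6. SLC7A2, a second carrier of arginine and lysine, was the single gene of these pathway lists called in siCAMSAP1 cells. It had 95.5 and 101 CPM in siRAB3IP cells, 66.2 and 68.2 CPM in siCAMSAP1 cells, and 114 and 122 CPM in control cells, a log2 fold change of siCAMSAP1 over control of -0.81 ± 0.08 (edgeR, adjusted p = 0.000928).

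Of 17 other genes of one-carbon and glycine metabolism, 2 were called higher in siRAB3IP cells against control cells: MTHFD1L, the mitochondrial formyl-folate synthetase (0.34 ± 0.09), and SFXN1, the mitochondrial serine carrier (0.27 ± 0.08). That share is near the 9.83% of all genes at 5 CPM or more. GLDC, the decarboxylase of glycine cleavage, was lower, at 26.3 and 24.7 CPM in siRAB3IP cells, 40.2 and 38.5 CPM in siCAMSAP1 cells, and 42.6 and 43.0 CPM in control cells (siRAB3IP over control, -0.75 ± 0.09, edgeR, adjusted p = 0.000287). The folding and degradation genes of the endoplasmic reticulum arm are mainly controlled by other sensors than eIF2 kinases. Of 15 genes of that arm, 7 were called higher in siRAB3IP cells over control (6.39% of all genes tested) and 4 over siCAMSAP1 cells (4.89%). XBP1, a factor of that arm, had a log2 fold change over control of 0.86 ± 0.08 (edgeR, adjusted p = 0.000111).

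**Figure D4:**
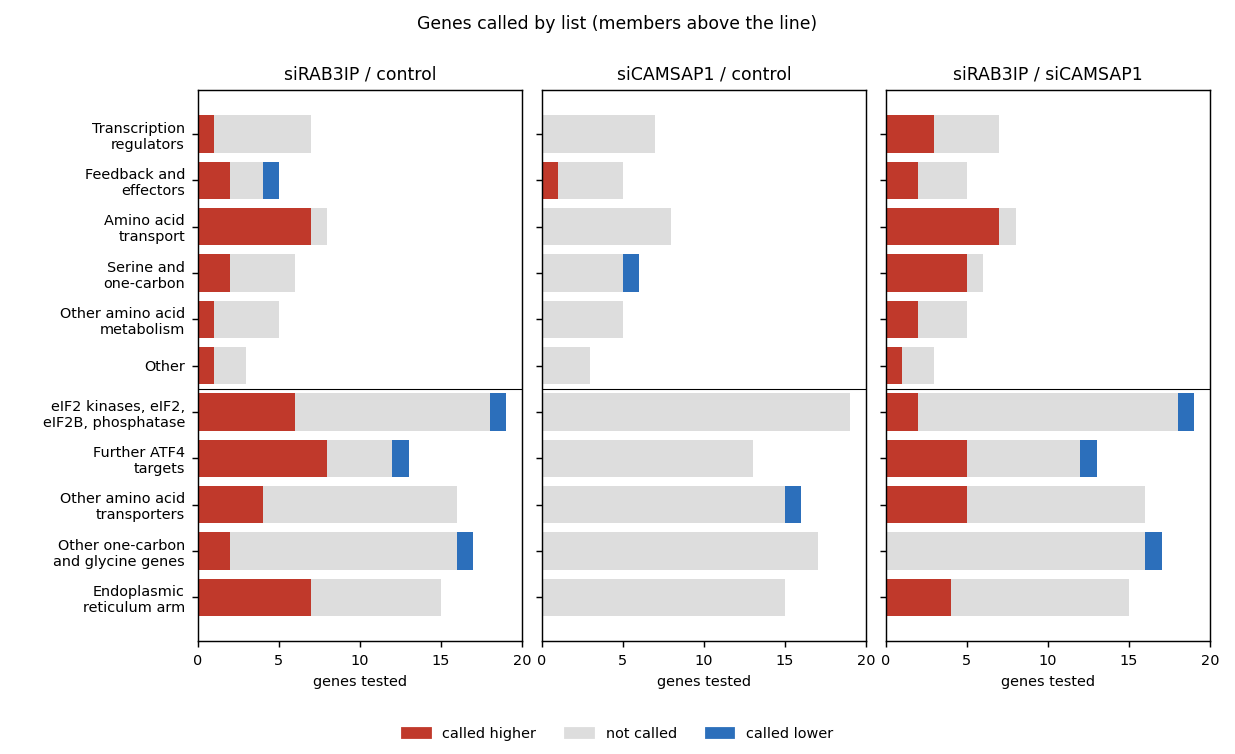
Number of genes tested in each list (bar length), with genes called higher in red, not called in grey and called lower in blue, in siRAB3IP over control, siCAMSAP1 over control and siRAB3IP over siCAMSAP1. Lists of the 34 genes are above the line. Amino acid transport has 7 of 8 genes called higher in both siRAB3IP panels. Serine and one-carbon genes have 2 of 6 over control and 5 of 6 over siCAMSAP1. Of all genes tested, 6.39% were called higher over control and 4.89% over siCAMSAP1.

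The authors' deposited table for siRAB3IP against control, which holds 2192 genes, lists 15 of the 34, all with positive log2 fold changes. It includes NUPR1 (log2 fold change 1.01 in the authors' deposited table) and PHGDH (0.29 in the authors' deposited table), which were not called here, and lacks DDIT4 and SLC6A9, which were. The authors' deposited table for siCAMSAP1, with 474 genes, lists 7 of the 34, of which PPP1R15A is positive and 6 are negative. The negative ones in the authors' deposited table are ATF4 (-0.25), PHGDH (-0.41), PSAT1 (-0.37), ALDH1L2 (-0.70), ASNS (-0.35) and CBS (-0.36).

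Counting limits touch some of these genes. For 12 of the 34, exons overlap those of another gene, mostly on the opposite strand. Without a strand setting reads from the shared part cannot be told apart, and featureCounts by default counts such reads for neither gene. Beside those named above, the overlap was 41.2% of exon length for DDIT4, with DDIT4-AS1 at 0 counts, and 8.97% for SLC7A11, with SLC7A11-AS1 at 101. For SLC6A9 it was 7.83%, with CCDC24 at 1578 counts over the 6 libraries against 740 for SLC6A9. Counts of pseudogenes with the same root name were at most 1.44% of a gene's own counts.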

How the data were processed

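The deposited count table gives fragments per gene, made by the authors with featureCounts 1.6.0 on primary alignments without a strand setting, per the file headers. STAR, DESeq2 and hg19 are named in the submitters' processing notes, with versions not given in the sources used here. In the authors' deposited tables of comparisons stand normalized signal (counts over size factors), log2 fold changes and standard errors, a Wald score and p-value columns. These were used to check the grouping and are quoted by name. Genes outside those tables are not known from them.

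Groups were taken from library identifiers (tolerance of the match 1e-09 in log2 ratio). Counts went into a quasi-likelihood fit of edgeR 4.0.16 (R 4.3.3) with TMM scaling and its default filter on low counts. The 3 groups shared 1 model, which left 3 residual degrees of freedom. Benjamini-Hochberg adjustment covered 22331 genes, threshold 0.05. TPM used the exon lengths of the count table. Libraries held 37379217 to 39637733 counts, so 3 counts stand for 0.0757 to 0.0803 CPM. Replicates differed by more than sampling noise.

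The 34 genes and all other lists were chosen with earlier results of these data known. A gene was found for 127 of 128 list entries, and 1 further marker is not reported here. All 34 genes are named, and from each further list up to 4 called genes per comparison, by absolute log2 fold change, with a mean of at least 1 CPM. Paralog reads may be split, since only primary alignments were counted. The same results were also computed with DESeq2 1.42.0, with limma-voom 3.58.1, under upper-quartile or RLE scaling, with no filter or a 5 CPM filter, on the compared groups alone, with a replicate block, with each library left out, and with groups by title.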

Additional observations from a re-analysis of the deposited data

How the results depend on the processing

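Apart from the grouping by titles, 14 alternatives were run. In siRAB3IP over control, 10 of 15 calls were kept in all 14 in which the gene was tested: PPP1R15A, CHAC1, SLC7A11, SLC7A5, SLC3A2, SLC7A1, SLC1A4, MTHFD2, ASNS and STC2. In siRAB3IP over siCAMSAP1, 11 of 20 were kept, and in siCAMSAP1 over control 0 of 2. CHAC1, SLC6A9, NUPR1 and JDP2 were not tested at a mean of at least 5 CPM. The scaling alternatives moved the median of all genes by under 0.1 on the log2 scale. Leaving out 1 library gave 11 to 14 of the 34 genes higher, 0 to 1 lower and 1034 to 2491 of all genes called in siRAB3IP over control, where the main values were 14, 1 and 2597. In siCAMSAP1 over control it gave 0 to 1 higher, 0 to 2 lower and 67 to 210 of all genes, against 1, 1 and 210. In siRAB3IP over siCAMSAP1 it gave 13 to 20 higher and 620 to 2296 of all genes, against 20 and 1977. When a library was left out, its lone partner was assumed to vary like the other groups. The number of genes of the 34 lower in siCAMSAP1 cells was 2 with upper-quartile scaling, 6 with no filter, 2 at a mean of at least 5 CPM, 0 with the compared groups alone and 5 with DESeq2; all genes called were 560 with no filter and 382 with DESeq2. The causes were not tested.

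With the replicate number as a block, 3 of the 34 genes were lower in siRAB3IP over control and 5371 of all genes were called. In siCAMSAP1 over control the block gave 3 higher, 9 lower and 1408 of all genes, and in siRAB3IP over siCAMSAP1 4630 of all genes. Under the block, ATF4 passed in siRAB3IP over control (adjusted p = 0.0106) and in siCAMSAP1 over control (adjusted p = 0.0115). Deviations from the group means of libraries with the same number correlated at 0.253 to 0.314 across genes. With 2 numbers per group and no label that ties a number to a culture or day, the libraries share only a number.

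Grouped by sample titles, 0 of the 34 genes and 0 of all genes were called in each comparison, and 34 called fold changes changed sign, at adjusted p above 0.99 each. In circRAB3IP over control by title the log2 fold changes were DDIT3 -0.40, PPP1R15A -0.48, DDIT4 0.12, CHAC1 -1.83, SLC7A11 -0.63, SLC7A5 -0.41, SLC3A2 -0.34, SLC7A1 -0.38, SLC1A5 -0.35, SLC1A4 -0.46, SLC6A9 -0.36, PSAT1 -0.44, MTHFD2 -0.40, ASNS -0.54 and STC2 -0.53. In circRAB3IP over circCAMSAP1 by title they were ATF4 -0.047, DDIT3 -0.25, NUPR1 -1.22, PPP1R15A -0.49, CHAC1 -1.18, SLC7A11 -0.61, SLC7A5 -0.36, SLC3A2 -0.26, SLC7A1 -0.28, SLC1A5 -0.17, SLC1A4 -0.43, SLC6A9 -0.50, PHGDH -0.27, PSAT1 -0.24, PSPH -0.15, MTHFD2 -0.28, ASNS -0.46, CBS -0.079 and STC2 -0.66. That grouping mixes libraries that the identifiers put in different groups. Its circRAB3IP group holds no siRAB3IP library by identifier. Instead, siRAB3IP replicate 1 stands in its control group and siRAB3IP replicate 2 in its circCAMSAP1 group. For a gene high in both siRAB3IP libraries, this arrangement by itself lowers both of these fold changes.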
